A study of Homo sapiens with 24 samples.

Results

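HCT116 is an established human colon cancer line, and these data compare HCT116 cells that carry an extra gene for estrogen receptor beta (ESR2 cells) with the parental cells from which they were made, both kept in hypoxia and both without estradiol. The comparison rests on 6 of the 24 Affymetrix 3′ expression arrays of the study, chosen by their titles: 3 of hypoxic parental cells (genotype WT, no treatment) and 3 of hypoxic ESR2 cells (ESR2 overexpression, no treatment). The other 18 arrays hold the same cells in normoxia, or in either oxygen setting with 10 nM 17β-estradiol, 3 arrays a group. Per the labels, full-length ESR2 with an N-terminal HaloTag was delivered by a lentiviral vector that also carries GFP and a puromycin resistance gene, the virus was packaged in HEK293T cells, and the ESR2 cells are a selected pool of which most cells express GFP, not a clone. A vector control is not given in the sources used here, so an effect of the receptor and one of transduction and selection cannot be told apart. Below, ESR2 effect means only the difference of ESR2 cells from parental cells. For hypoxia a mix of nitrogen and carbon dioxide was passed through the incubator chamber, for a time not given in the sources used here. The medium without phenol red and with stripped serum is described for the estradiol treatment; that of the untreated cells is not given in the sources used here. The labels do not say whether the 3 replicates came from separate cultures. The p-values rest on a spread pooled over the groups of all 24 arrays, and that spread may be technical. In bulk RNA, fewer cells with a transcript and less transcript per cell cannot be told apart.

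Estrogen receptor beta is a ligand-activated transcription factor that binds estrogen response elements in DNA, or other factors already bound there, and it is the main estrogen receptor of colon epithelium. Hypoxia acts on cells through the hypoxia-inducible factors (HIF): with oxygen present, prolyl hydroxylases of the EGLN family mark HIF-1α and HIF-2α for destruction by the VHL ubiquitin ligase, and an asparagine hydroxylase, HIF1AN, blocks their transactivation. Without oxygen the alpha subunits pair with ARNT and raise genes of glycolysis, vascular growth and stress. Low oxygen also lowers the output of costly programmes such as ribosome synthesis and DNA replication.

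Values are RMA log2 signals, in which a difference of 1 is a 2-fold change, and each of 18239 genes is represented by its brightest probe set over all arrays. Arrays of a group correlated at 0.9977 or more across probe sets in parental and at 0.9957 or more in ESR2 cells, and arrays of different groups at 0.982 to 0.984. A 3′ minus 5′ index of RNA and labelling quality (log2, averaged from the control probe sets for ACTB, dap and thr) lay between 2.28 and 2.41 on the parental and between 2.00 and 2.19 on the ESR2 arrays, so the groups did not overlap in it. With that index as a covariate limma called 4008 genes higher and 3699 lower, against 3726 and 3643 without it. The slope of that covariate comes from the spread within groups, widest in parental normoxia (2.60 to 4.34). The fit therefore cannot tell what part the index has in the difference between the hypoxic groups. Other arrays used below for comparison stand apart: replicate 2 of parental normoxia had an index of 4.34 and correlated with its group at 0.988, and the hypoxic ESR2 arrays with estradiol had indices of 3.42 to 4.01. The spread is pooled over all arrays, and without those that stand apart limma called 4180 genes higher and 4336 lower in hypoxia. Of 12 markers of colon epithelium 6 had a mean log2 signal of at least 6 in either hypoxic group; KRT8 and KRT18, keratins of simple epithelium, averaged 9.55 in parental and 10.23 in ESR2 cells and 10.51 in parental and 10.84 in ESR2 cells, CDX2, the intestinal transcription factor, 5.93 in parental and 6.46 in ESR2 cells, and LGALS4, an intestinal lectin, 3.74 in parental and 3.52 in ESR2 cells. None of the 6 markers measured of embryonic kidney lines, the 7 of fibroblasts or the 5 of leukocytes reached 6.

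The DNA before the start sites of the 4 genes that differed most is shown first, because the question is one of a DNA-binding receptor in hypoxia. DIDO1, a chromatin-binding PHD finger protein, and NCOA5, a coregulator of estrogen and other nuclear receptors, had the largest rises; KLF9, a Krüppel-like transcription factor induced by steroid hormones, and LCORL, a relative of a ligand-dependent nuclear receptor corepressor, had the largest falls. The 250 bases before a start of each that RefSeq annotates (GRCh38.p14), the outermost one except for DIDO1, are printed 5′ to 3′ on the gene's own strand, which is the minus strand for all 4. Capitals mark ACGTG, the core of the hypoxia response element, and GGTCA, the repeated part of the estrogen response element, on either strand.
NCOA5, chr20:46089963-46090212: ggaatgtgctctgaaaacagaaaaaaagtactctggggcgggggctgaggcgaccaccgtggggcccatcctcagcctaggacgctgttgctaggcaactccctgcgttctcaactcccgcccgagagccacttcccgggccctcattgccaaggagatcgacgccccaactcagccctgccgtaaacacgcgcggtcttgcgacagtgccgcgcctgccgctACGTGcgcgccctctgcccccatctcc
DIDO1, chr20:62926506-62926755: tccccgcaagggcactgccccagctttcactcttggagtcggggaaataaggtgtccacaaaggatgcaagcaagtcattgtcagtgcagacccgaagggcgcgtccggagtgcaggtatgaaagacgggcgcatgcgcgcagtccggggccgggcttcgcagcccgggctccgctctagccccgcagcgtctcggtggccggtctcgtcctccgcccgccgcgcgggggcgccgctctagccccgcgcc
KLF9, chr9:70414658-70414907: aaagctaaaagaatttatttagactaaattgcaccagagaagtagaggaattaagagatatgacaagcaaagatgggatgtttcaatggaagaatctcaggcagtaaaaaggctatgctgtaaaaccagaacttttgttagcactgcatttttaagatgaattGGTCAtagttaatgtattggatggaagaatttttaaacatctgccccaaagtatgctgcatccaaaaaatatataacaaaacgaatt
LCORL, chr4:18021876-18022125: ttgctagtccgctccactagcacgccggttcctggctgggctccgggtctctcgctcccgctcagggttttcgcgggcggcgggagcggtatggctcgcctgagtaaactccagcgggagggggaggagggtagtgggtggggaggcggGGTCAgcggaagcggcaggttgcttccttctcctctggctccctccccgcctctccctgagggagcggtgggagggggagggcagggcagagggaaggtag
The NCOA5 window holds 1 ACGTG and no GGTCA, those of KLF9 and LCORL hold 1 GGTCA each and no ACGTG, and that of DIDO1 holds neither. The DIDO1 window lies inside the annotated span of the gene (chr20:62877743-62937904), at an internal start. Over the 250-base windows of 27305 genes, 18.5% hold ACGTG and 33.3% hold GGTCA, so single matches are common; the full element GGTCANNNTGACC stands in 0.0439% of windows and in none of these 4. A match is a description of the letters in this window and says nothing of binding.

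ESR2 itself was measured first, since it checks the labels. Its signal was 3.46, 3.31 and 3.53 on the parental arrays and 4.08, 3.96 and 4.17 on the ESR2 arrays, and the groups did not overlap (log2 difference 0.64, SE 0.13; limma, adjusted p = 0.000411). Of its 8 probe sets 4 were higher in ESR2 cells, by 0.41 to 0.64, while the 4 without a call ranged from -0.16 to -0.02. With the mean of the 8 the difference was 0.22. ESR1, which encodes estrogen receptor alpha, lay at 4.34, 4.26 and 4.30 in parental and 3.88, 3.70 and 4.05 in ESR2 cells and was lower (log2 difference -0.42, SE 0.09; limma, adjusted p = 0.000805). ESR1 and ESR2 thus lay close to the array medians of 4.07 to 4.13, at the dim end of the scale.

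Across the genome, ESR2 and parental cells differed broadly in hypoxia: limma called 3726 genes higher in ESR2 cells, 20.4% of those tested, and 3643 lower, 20.0%. Past 2-fold were 493 of the former and 194 of the latter. Counts in gene lists below stand beside these 20.4% and 20.0% of all genes. Their counts in normoxia stand beside 9.76% higher and 8.86% lower. Groups did not overlap in 3620 of the genes called higher and 3331 of those called lower, and the median log2 difference over all genes was -0.06. Over all 18239 genes, called or not, 4392 were higher and 4847 lower without overlap, so a lack of overlap alone was common. The split depends on the scaling, since with arrays centred on their medians 3318 were higher and 5612 lower. The median shift between these scalings is small beside the differences named below, since ESR2 moved from 0.64 to 0.58 with it.

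The 15 genes with the largest rises were 4.70-fold to 8.31-fold higher in ESR2 cells. NCOA5 read 4.51, 4.26 and 4.11 on the parental arrays and 7.31, 7.35 and 7.38 on the ESR2 arrays. All 3 ESR2 values lay above all 3 parental ones (log2 difference 3.05, SE 0.10; limma, adjusted p = 3.07e-16). Its 2 probe sets were both higher, but the other one by only 0.41. MAT2A, the methionine adenosyltransferase that makes S-adenosylmethionine, read 7.04, 7.18 and 7.08 on the parental arrays and 9.87, 10.11 and 10.20 on the ESR2 arrays (log2 difference 2.96, SE 0.09; limma, adjusted p = 9.92e-17), with 5 of its 6 probe sets higher. GDF15, a stress-induced cytokine of the TGF-beta family and a p53 target, read 5.30, 5.34 and 5.30 on the parental arrays and 8.48, 8.36 and 8.07 on the ESR2 arrays (log2 difference 2.99, SE 0.16; limma, adjusted p = 7.22e-13). TP53I3, a p53-induced quinone oxidoreductase, was at 5.28, 5.28 and 5.27 in parental and 8.27, 8.07 and 8.21 in ESR2 cells (log2 difference 2.91, SE 0.10; limma, adjusted p = 6.53e-16). These genes were picked by size among called genes whose groups do not overlap, so the gaps between the groups follow from the choice.

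DIDO1 needs care. Its brightest probe set read 4.40, 3.77 and 4.06 on the parental arrays and 7.28, 7.20 and 6.91 on the ESR2 arrays (log2 difference 3.06, SE 0.13; limma, adjusted p = 2.09e-14), but of its 6 probe sets 1 was higher and 2 were lower, the lowest at -1.01. SLC35G1, a membrane protein of the SLC35 family, was 6.35-fold higher (2.67, SE 0.10), LCMT2, an enzyme of transfer RNA modification, 5.51-fold, and FSAF1, an assembly factor of the small ribosomal subunit, 5.5-fold. ID2, an inhibitor of basic helix-loop-helix transcription factors, was 5.22-fold higher (2.38, SE 0.09). ARPC3, part of the Arp2/3 complex that starts branched actin filaments, was 5.2-fold higher, and BAX, a pro-apoptotic protein of the BCL2 family and a p53 target, 4.89-fold. The probe sets of LCMT2 ranged from 0.42 to 2.46 and those of BAX from 0.58 to 2.29. The remaining members were FAM200C, WDR73, ZNF425, a zinc finger protein, and MSX2, a homeobox transcription factor, at 5.82-fold, 4.86-fold, 4.73-fold and 4.7-fold. The other probe set of ZNF425 had 0.21 without a call, and that of MSX2 had 0.64.

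The 15 largest falls were 3.66-fold to 8.58-fold. KLF9 read 7.61, 8.26 and 8.09 on the parental arrays and 4.90, 5.08 and 4.68 on the ESR2 arrays (log2 difference -3.10, SE 0.15; limma, adjusted p = 1.19e-13), and 3 of its 4 probe sets were lower and none was higher. LCORL read 8.53, 8.52 and 8.60 on the parental arrays and 5.64, 5.57 and 5.57 on the ESR2 arrays (log2 difference -2.95, SE 0.11; limma, adjusted p = 2.1e-15). Both of its probe sets were lower, the other at -1.19. KRTAP2-3, a keratin-associated protein of a family of near-identical copies and so uncertain as to which copy is measured, read 8.94, 8.96 and 8.87 on the parental arrays and 6.08, 5.90 and 6.05 on the ESR2 arrays (log2 difference -2.91, SE 0.07; limma, adjusted p = 2.47e-18); KRTAP4-9, of the same kind, was 4.06-fold lower. NT5E, the cell surface nucleotidase CD73 that makes adenosine, read 7.95, 8.17 and 8.27 on the parental arrays and 5.99, 5.99 and 5.27 on the ESR2 arrays (log2 difference -2.38, SE 0.16; limma, adjusted p = 3.39e-11). All 3 of its probe sets were lower, the smallest fall being -0.43. The falls were picked in the same way, and replicate 3 of the ESR2 cells was the lowest of its group for NT5E.

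Other falls were those of membrane receptors and regulators. LEPR, the leptin receptor, was 4.26-fold lower (-2.09, SE 0.16), OPN3, an opsin, 3.66-fold, and SYT1, a calcium sensor of vesicle fusion, 3.72-fold. NF1, the Ras GTPase-activating protein neurofibromin, was 3.81-fold lower (-1.93, SE 0.13), with 4 of 21 probe sets lower and none higher. BRWD1, a bromodomain protein, and RSRP1, an arginine and serine rich protein, were 4.12-fold and 3.94-fold lower. For OSMR, the oncostatin M receptor (5.77-fold lower), TRIOBP, an actin-binding protein (5.37-fold), and ZNF226, a zinc finger protein (4.86-fold), other probe sets of the gene were called higher.

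Most of these 30 genes had a hypoxic parental level away from that of the other settings, as the means of the 4 groups without estradiol show. NCOA5 averaged 7.26 in parental normoxia, 4.30 in parental hypoxia, 7.30 in ESR2 normoxia and 7.35 in ESR2 hypoxia. MAT2A averaged 10.23, 7.10, 10.30 and 10.06 in the same order, and KLF9 5.19, 7.99, 4.44 and 4.89. Hypoxic parental cells had the lowest mean of the 4 groups in 13 of the 15 genes that were higher, and the highest mean in all 15 that were lower. GDF15 was of the other kind, at 3.50, 5.31, 6.76 and 8.30, higher in ESR2 cells in either setting. The hypoxic parental arrays enter both the choice of these genes and this count, which is therefore a description.

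**Figure D1:**
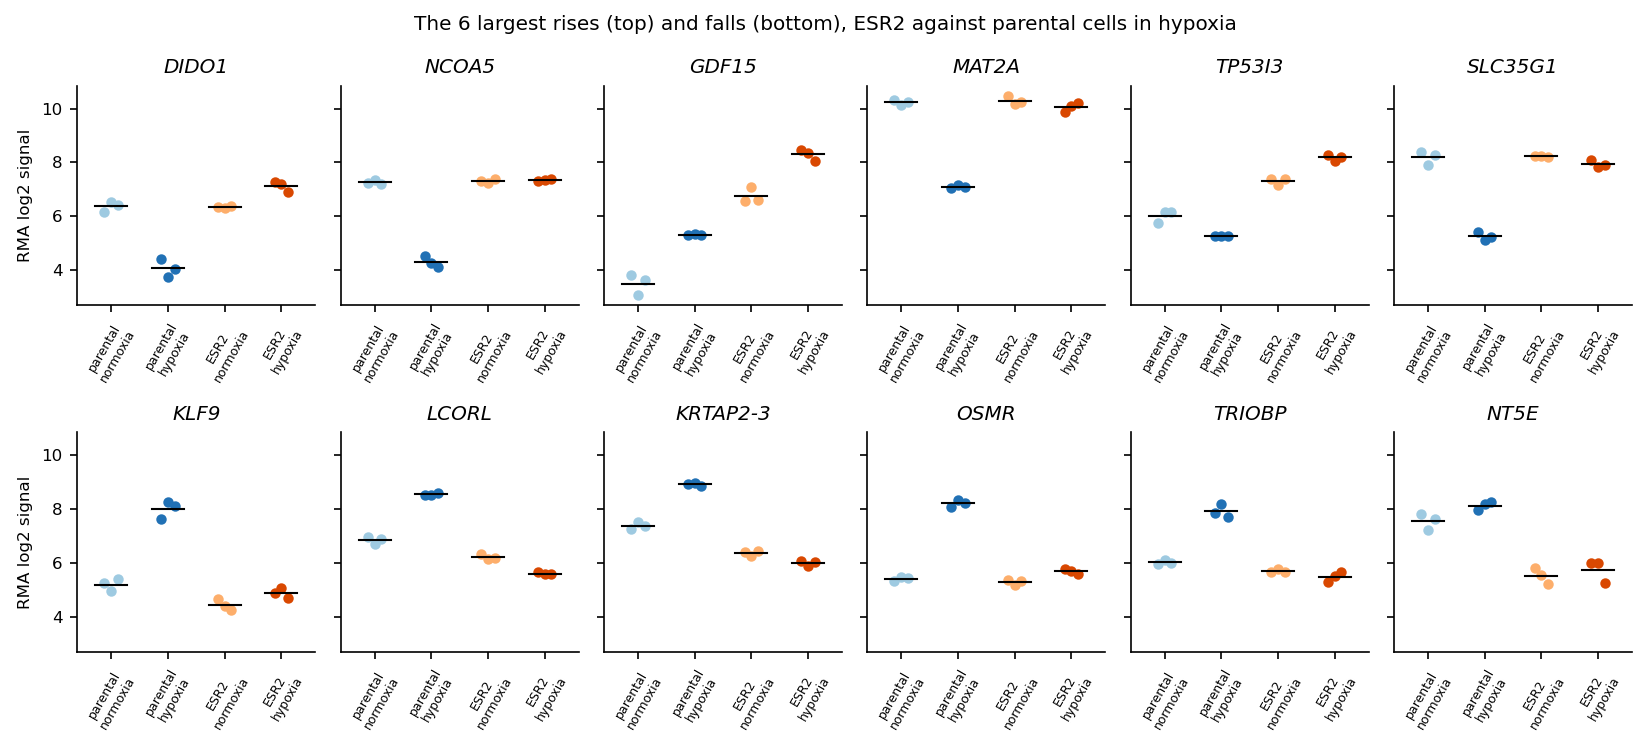
RMA log2 signal of the 6 genes with the largest rises (top row) and the 6 with the largest falls (bottom row) in ESR2 against parental cells in hypoxia, on each array of the 4 groups without estradiol; points are arrays, bars are means of 3. In the top row the hypoxic parental points (dark blue) lie lowest except for GDF15, and in the bottom row they lie highest in every panel.

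The machinery that senses oxygen was examined next. HIF1A, which encodes HIF-1α, read 9.36, 9.45 and 9.48 on the parental arrays and 8.56, 8.79 and 8.60 on the ESR2 arrays and was 1.71-fold lower (log2 difference -0.78, SE 0.09; limma, adjusted p = 2.55e-07); 7 of its 8 probe sets were lower and none was higher. The difference ran the other way in normoxia, where HIF1A was higher by 0.45 (limma, adjusted p = 0.00112). Without replicate 2 of parental normoxia, which stands apart, it was 0.31 (limma, adjusted p = 0.00715). HIF1AN, the asparagine hydroxylase that restrains HIF, read 5.73, 5.65 and 5.63 on the parental arrays and 6.90, 6.83 and 6.77 on the ESR2 arrays and was 2.25-fold higher (log2 difference 1.17, SE 0.07; limma, adjusted p = 8.95e-12), with all 3 probe sets higher. VHL, the ubiquitin ligase subunit that marks HIF for destruction, read 6.08, 6.02 and 5.96 on the parental arrays and 7.23, 7.12 and 7.00 on the ESR2 arrays and was 2.14-fold higher (log2 difference 1.10, SE 0.16; limma, adjusted p = 6.68e-06), with both probe sets higher. The groups did not overlap in HIF1A, HIF1AN or VHL.

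EP300, an acetyltransferase that HIF and nuclear receptors recruit, was 2.39-fold higher (1.26, SE 0.15). EPAS1, which encodes HIF-2α, had 0.05, SE 0.09, EGLN1, the main HIF prolyl hydroxylase, 0.23, SE 0.10, EGLN2 0.25, SE 0.13 and HIF3A -0.11, SE 0.09, none past the threshold. EGLN1 depends on the probe set, since the mean of its probe sets gave -0.69 (limma, adjusted p = 4.66e-09), and with array weights EGLN1 and EGLN2 were called higher, at 0.28 (adjusted p = 0.00408) and 0.22 (adjusted p = 0.0355). EGLN3, the prolyl hydroxylase that HIF itself induces, was lower (-0.31, SE 0.11; adjusted p = 0.0316), but averaging its probe sets gave -0.09 without a call (adjusted p = 0.229), and the call was also lost without parental replicate 3 (-0.23, adjusted p = 0.154) or ESR2 replicate 3 (-0.20, adjusted p = 0.17). ARNT, the HIF partner, was called higher (0.27, SE 0.08; adjusted p = 0.0107), but 2 of its 5 probe sets were higher and 1 was lower, and with their mean the difference was -0.01 (adjusted p = 0.923); without ESR2 replicate 2 it was 0.22 and not called (adjusted p = 0.0652). In the whole list of 20 oxygen-sensing genes 6 were higher, 2 lower and 12 not called (median log2 difference 0.13), against the 20.4% and 20.0% of all genes. With array weights 10 of them were higher, and with arrays centred on their medians 5 were lower. A mean log2 signal of at least 6 was reached by 16 of the 20, and genes that bright were called more often. Of 2578 such genes spanning 30 to 100 kb, 37% were called higher and 25.5% lower. Many other lists were mostly of such genes, with 35 of 36 for ribosome biogenesis and 40 of 41 for DNA replication.

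Genes that HIF raises were mostly lower in hypoxic ESR2 cells. Of 36 HIF targets measured, 3 were higher, 22 lower and 11 not called, with a median of -0.37 against -0.06 over all genes. The 3 higher members fell to 1 when parental replicate 2 or 3, or ESR2 replicate 1, was left out. HILPDA, a hypoxia-induced lipid droplet protein, read 10.12, 10.10 and 10.13 on the parental arrays and 8.59, 8.40 and 8.49 on the ESR2 arrays, and was 3.08-fold lower (log2 difference -1.63, SE 0.08; limma, adjusted p = 5.01e-13). ANKRD37, a small ankyrin repeat protein and direct HIF target, read 11.37, 11.33 and 11.45 on the parental arrays and 10.05, 9.91 and 9.86 on the ESR2 arrays (2.73-fold lower). BHLHE40, a transcriptional repressor of the hypoxia and clock response, read 8.40, 8.45 and 8.28 on the parental arrays and 6.70, 6.58 and 6.29 on the ESR2 arrays (3.6-fold lower). The arrays of each group stayed together and the groups did not overlap in any of these. MXI1, a MYC antagonist, was 2.03-fold lower, though 1 of its 5 probe sets was higher and 2 were lower, and their mean gave -0.14 (adjusted p = 0.257).

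VEGFA, the vascular growth factor, was 1.93-fold lower (-0.95, SE 0.09) with all 10 of its probe sets lower, and ADM, which encodes the vasodilator adrenomedullin, 1.7-fold; both were named after their values were seen, as was WSB1, a HIF-induced ubiquitin ligase component, which was higher (0.71, SE 0.08) although 2 of its 7 probe sets were lower. In normoxia the same list had 9 members higher, 5 lower and 22 not passing (median 0.04). The test of the difference between the settings called 20 members with a lower and 2 with a higher ESR2 effect in hypoxia, and 14 did not pass. Of 21 glycolysis genes 1 was higher, 8 lower and 12 not called (median -0.02). PDK3 and PDK1, kinases that turn off pyruvate dehydrogenase, had -1.03 (SE 0.11) and -0.65 (SE 0.09), HK2, a hexokinase, -0.53 (SE 0.07), and PFKM, a phosphofructokinase, -0.41 (SE 0.06).

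Genes of lipid synthesis were mostly lower as well. Of 21 genes of sterol synthesis 2 were higher, 14 lower and 5 not called (median -0.38). INSIG1, an endoplasmic reticulum protein of sterol feedback that is induced by SREBP, read 11.04, 11.21 and 11.17 on the parental arrays and 9.58, 9.52 and 9.52 on the ESR2 arrays, 3.03-fold lower (log2 difference -1.60, SE 0.08; limma, adjusted p = 2.79e-13). MSMO1, a sterol oxidase, read 11.11, 11.17 and 11.14 on the parental arrays and 9.83, 9.73 and 9.62 on the ESR2 arrays, 2.66-fold lower. DHCR7, the last reductase of cholesterol synthesis, and HSD17B7, a dehydrogenase of the pathway, were 1.84-fold and 1.87-fold lower, and the groups did not overlap in any of them. The 2 higher members, TM7SF2, a sterol reductase (0.79, SE 0.09), and PMVK, phosphomevalonate kinase (0.84, SE 0.11), were named after their values were seen. In normoxia 4 sterol genes were higher and 2 lower.

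Fatty acid synthesis had 9 of 16 members lower, 2 higher and 5 not passing (median -0.26). ACSL4, which activates polyunsaturated fatty acids, had -0.80, SE 0.11, LPIN1, a phosphatidate phosphatase, -0.59, SE 0.09, and ME1, malic enzyme, -0.51, SE 0.09. GPAM, an acyltransferase that starts triglyceride synthesis, was higher (0.83, SE 0.10).

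Genes of ribosome synthesis and DNA replication were mostly higher or did not pass. Of 36 genes of ribosome biogenesis 26 were higher, 4 lower and 6 not called (median 0.41), while in normoxia none was higher, 7 were lower and 29 did not pass. RRS1, a factor of large subunit assembly, read 6.72, 6.70 and 6.55 on the parental arrays and 8.71, 8.87 and 8.97 on the ESR2 arrays, 4.57-fold higher (log2 difference 2.19, SE 0.09; limma, adjusted p = 7.94e-15). NOP2, a ribosomal RNA methyltransferase, was 2.59-fold higher with all 3 probe sets, POLR1B, the second largest subunit of RNA polymerase I, 2.22-fold with all 6, and NIP7, a late assembly factor, 1.96-fold with both. The log2 difference of ESR2 minus parental cells was called more positive in hypoxia than in normoxia for 24 of the 36 and more negative for none. MYC, the transcription factor that drives this programme, was itself lower (-0.31, SE 0.07; 1 probe set).

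Among 41 genes of DNA replication 21 were higher, 1 lower and 19 not called (median 0.23), and with quantile normalization once more 6 were lower. CCNE2, a cyclin of S-phase entry, read 6.25, 6.60 and 6.50 on the parental arrays and 8.67, 8.44 and 8.54 on the ESR2 arrays, 4.29-fold higher (log2 difference 2.10, SE 0.13; limma, adjusted p = 1.28e-11), and its relative CCNE1 was 2.13-fold higher. GINS4, of the replicative helicase, and ORC6, of the origin recognition complex, were 2.34-fold and 2.02-fold higher. In normoxia the list had 1 member higher and 11 lower. Of 35 mitosis genes 9 were higher, 8 lower and 18 not called (median 0.03), beside the 20.4% higher and 20.0% lower of all genes. CCNB1, the mitotic cyclin, had 0.57, SE 0.05, while SPC25 and CDC25C, a kinetochore protein and a mitotic phosphatase, had -0.67, SE 0.07 and -0.58, SE 0.08. MKI67, the proliferation marker, was lower by its brightest probe set (-0.86, SE 0.10), but 4 of its 6 probe sets were higher and the mean of them gave 0.45 (limma, adjusted p = 0.000652).

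G1 regulators were split. Of 18 measured, 7 were higher, 4 lower and 7 not called (median 0.04). CDKN2B and CDKN1A, inhibitors of cyclin-dependent kinases, were 2.85-fold (1.51, SE 0.11) and 1.84-fold higher (0.88, SE 0.10), E2F3, an S-phase transcription factor, 1.89-fold higher, and CDKN1B, a further inhibitor, 1.44-fold lower.

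Most targets of p53 were higher in either oxygen setting. Of 25 measured, 16 were higher, 3 lower and 6 not called in hypoxia (median 0.42), and 15 were higher and 3 lower in normoxia (median 0.40). With quantile normalization once more the hypoxia median was 0.26 and 6 members were lower. GDF15 and TP53I3 are given above. TIGAR, a regulator of glycolysis, was 3.01-fold higher (1.59, SE 0.09) and TP53INP1, a p53-induced nuclear protein, 3.49-fold, the last with 1 of its 2 probe sets lower. GADD45A, a stress sensor induced by p53 and by other pathways, was 2.47-fold lower (-1.31, SE 0.07). The difference between settings was called positive for 5 members, such as TP53I3, at 1.62 (SE 0.14; adjusted p = 7.73e-09), and negative for 9, such as CDKN1A, at -0.54 (SE 0.15; adjusted p = 0.00631).

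Of 19 members of the BCL2 family 3 were higher, 7 lower and 9 not called (median -0.18). The higher ones included BAX and BCL2L11, a pro-apoptotic sensor (2.7-fold, 1.43, SE 0.10, 8 of 14 probe sets higher). MCL1, an anti-apoptotic member, and BNIP3, a mitophagy receptor and HIF target, had -0.59, SE 0.07 and -0.43, SE 0.07.

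**Figure D2:**
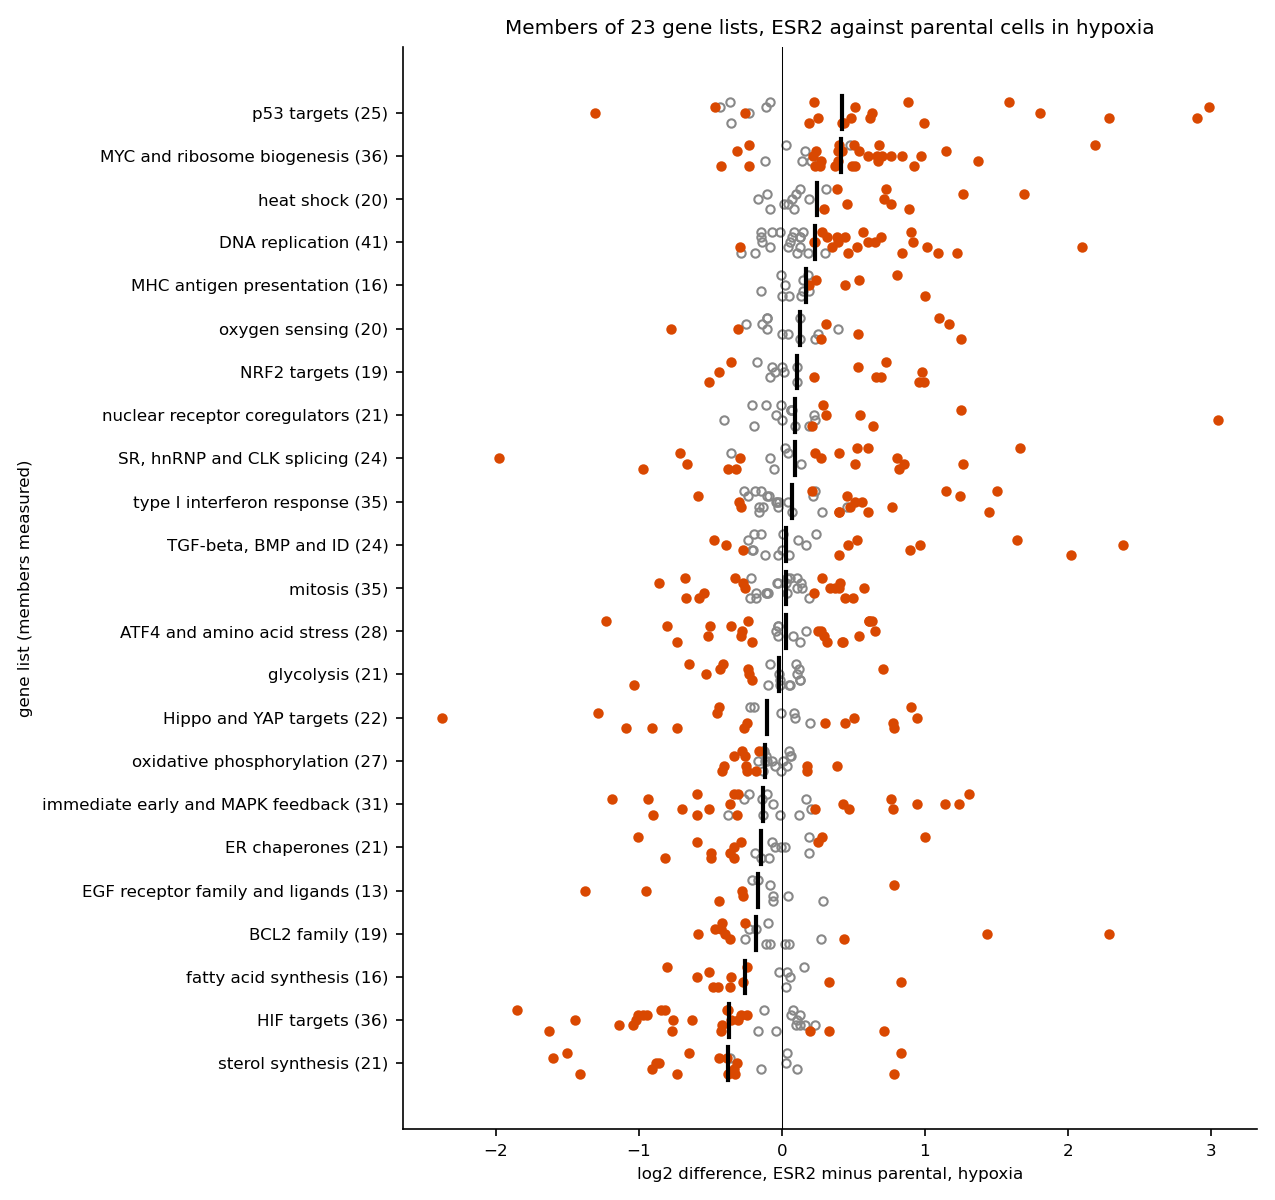
Log2 difference of ESR2 minus parental cells in hypoxia for the measured members of 23 gene lists, ordered by median; each point is a gene, filled where limma called it, open where not, and the black bar is the median of the list. HIF targets and sterol synthesis lie lowest at medians of -0.37 and -0.38, and p53 targets and ribosome biogenesis highest at 0.42 and 0.41.

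Genes of protein folding were taken as a heat shock list and a list of endoplasmic reticulum chaperones, and the difference between the lists was not tested. In the heat shock list of 20, 9 were higher, 0 lower and 11 not called (median 0.24). A mean log2 signal of at least 6 was reached by 19 of them, and genes that bright were called more often. DNAJA1, a cytosolic co-chaperone, was 3.23-fold higher (1.69, SE 0.08) with all 5 probe sets, and SERPINH1, a collagen chaperone that itself resides in the endoplasmic reticulum, 2.41-fold. HSPA1B, an inducible HSP70 whose sequence is nearly that of HSPA1A so that the copies cannot be told apart, was 1.7-fold higher. Of 21 endoplasmic reticulum chaperones 3 were higher, 9 lower and 9 not called (median -0.15). HERPUD1, of the degradation machinery, MANF, a secreted chaperone partner, and DNAJB9 were 2.01-fold, 1.51-fold and 1.76-fold lower, and PDIA3, a disulfide isomerase, was 2.01-fold higher although 1 of its 2 probe sets was lower. Of 28 genes of the ATF4 and amino acid stress list 11 were higher, 10 lower and 7 not called. DDIT3, the stress transcription factor CHOP, was 2.35-fold lower (-1.23, SE 0.12), SHMT2 and CTH, enzymes of serine and cysteine metabolism, had -0.74 and -0.81, and SESN2, a stress-induced inhibitor of mTORC1, was higher (0.63, SE 0.07). For SESN2 1 of 2 probe sets was higher and none lower.

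Splicing regulators also moved in both directions. Of 24 measured, 11 were higher, 7 lower and 6 not called (median 0.09), while in normoxia 0 were higher and 1 lower. All 24 had a mean log2 signal of at least 6 in hypoxia. Of genes that bright spanning 30 to 100 kb, 37% were called higher and 25.5% lower. SRSF5, an SR protein, was 3.16-fold higher (1.66, SE 0.08), with 9 of 11 probe sets higher and 1 lower, RBM5, an RNA-binding protein, 2.4-fold, with 5 of 6 higher and 1 lower, and SRSF3 1.75-fold, with 6 of 7 higher and 1 lower. RSRP1, given above, and CLK1, a kinase of SR proteins named after its value was seen, were lower (-0.97, SE 0.09).

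Nuclear receptor biology was represented by coregulators and by known estrogen-responsive genes. Of 21 coregulators 7 were higher, 0 lower and 14 not called (median 0.09), with 3 lower under array weights, and in normoxia 1 was higher and 3 were lower. Besides NCOA5 and EP300, NCOA4, a coactivator that also carries ferritin to lysosomes, had 0.64, SE 0.08 and MED1, the Mediator subunit that nuclear receptors bind, 0.55, SE 0.08. Of 28 estrogen-responsive genes 7 were higher, 7 lower and 14 not called (median -0.04); 3 were lower by the mean of probe sets and 4 without ESR2 replicate 1. IL17RB, an interleukin receptor, RET, a receptor tyrosine kinase, and MYB, a transcription factor, were 2.76-fold, 2.65-fold and 1.84-fold higher. For RET 1 of 3 probe sets was higher and for MYB 1 of 2, with none lower. STC2, a secreted glycoprotein that HIF also induces, was lower by its brightest probe set (-0.76, SE 0.08), but its 2 other probe sets were higher and the mean of all 3 gave 0.29 (limma, adjusted p = 0.00246). Of the other receptors, ESRRA, ESRRB, ESRRG and GPER1 had 0.00, -0.06, -0.01 and -0.18, none past the threshold. For GPER1 5 of 9 probe sets were higher, and the mean of all gave 0.22 (adjusted p = 0.000499).

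Signalling lists held large differences in single members. In the TGF-beta, BMP and ID list 8 were higher, 3 lower and 13 not called of 24, and 7 were lower with array weights. ID3, a relative of ID2 and a target of BMP signalling, read 8.82, 8.81 and 8.74 on the parental arrays and 10.53, 10.41 and 10.36 on the ESR2 arrays, 3.12-fold higher (log2 difference 1.64, SE 0.06; limma, adjusted p = 2.1e-15), and BAMBI, a decoy receptor of the pathway, read 4.45, 4.28 and 4.39 on the parental arrays and 6.41, 6.29 and 6.49 on the ESR2 arrays, 4.06-fold higher. SMAD7, an inhibitory SMAD, had 0.97, SE 0.12, with 1 of 3 probe sets higher and none lower. Of 22 Wnt targets 5 were higher, 3 lower and 14 not called, with 7 lower under array weights, and AXIN2 and ZNRF3, negative feedback regulators of the pathway, were 2.74-fold and 2.73-fold higher. For AXIN2 1 of 3 probe sets was higher and none lower.

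Of 13 genes of the EGF receptor family and its ligands 1 was higher, 5 lower and 7 not called (median -0.17). EGFR read 7.45, 7.43 and 7.06 on the parental arrays and 5.99, 6.05 and 5.78 on the ESR2 arrays, 2.59-fold lower (log2 difference -1.37, SE 0.11; limma, adjusted p = 3.76e-10), with 2 of 8 probe sets lower and none higher, and TGFA, a ligand of it, was 1.93-fold lower with all 4. HBEGF, another ligand, was 1.73-fold higher, with 1 of 2 probe sets higher and none lower. Among 31 immediate early and MAPK feedback genes 9 were higher, 11 lower and 11 not called; KLF2 and FOSL2, transcription factors, were 2.36-fold and 2.48-fold higher, FOSL2 with 2 of its 5 probe sets higher and 1 lower, IER5 2.2-fold higher, and DUSP5, a phosphatase of ERK, 1.86-fold lower. Of 22 Hippo and YAP genes 7 were higher, 9 lower and 6 not called, with LATS1, a kinase of the pathway at a dim signal, 2.13-fold lower by its brightest probe set, with 2 of its 3 probe sets lower and 1 higher, and STK4, the kinase above it, 1.87-fold higher. AXL, a receptor tyrosine kinase and YAP target, was 1.87-fold lower.

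Of 35 type I interferon genes 13 were higher, 3 lower and 19 not called in hypoxia and 16 were higher and 1 lower in normoxia; with arrays centred on their medians 9 were lower in hypoxia. PARP9 and its partner DTX3L were 2.84-fold and 2.37-fold higher, RIGI, a sensor of viral RNA, 2.72-fold higher, and ISG20, an exonuclease, 1.5-fold lower. Of 24 NF-kB and cytokine genes 4 were higher, 6 lower and 14 not called, shares near the 20.4% higher and 20.0% lower of all genes, and with arrays centred on their medians 10 were lower. CXCL8, the neutrophil chemokine, had -0.88, SE 0.10 with all 3 probe sets lower, and TNFAIP2, a TNF-induced protein, had 1.00, SE 0.14, although 3 of its 5 probe sets were lower and their mean gave 0.03 (adjusted p = 0.793).

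Counts of epithelial, mesenchymal and differentiation genes depended on the setting. Of 28 genes of junctions and keratins 8 were higher, 5 lower and 15 not called (3 lower without ESR2 replicate 3), TJP1, a tight junction scaffold, having 0.58, SE 0.07 and ESRP1, an epithelial splicing factor, -0.67, SE 0.09. Of 25 epithelial-mesenchymal genes 4 were higher, 4 lower and 17 not called, but 11 were lower with array weights and 8 without ESR2 replicate 3. PLAUR, the urokinase receptor, was 2.66-fold lower with all 5 probe sets, and VIM, vimentin, 2.03-fold higher with both. Of 22 differentiation genes 2 were higher, 4 lower and 16 not called, and 10 were lower with array weights and 8 without ESR2 replicate 3, with KLF4 at -0.94, SE 0.12 and CA2, a carbonic anhydrase, at 0.51, SE 0.07. Of 13 integrins 1 was higher, 4 lower and 8 not called, and ITGA6 had -0.69, SE 0.08. Oxidative phosphorylation had 9 of 27 members lower and 3 higher (median -0.12), led by UQCRC2, of respiratory complex III (-0.42, SE 0.05), and with arrays centred on their medians 14 were lower.

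Whether ESR2 cells differed from parental cells as they do in normoxia was asked with the normoxic arrays. Those arrays enter the hypoxia comparison only through the pooled spread and the choice of the brightest probe set. In normoxia limma called 1780 genes higher (9.76%) and 1616 lower (8.86%). Of the 3726 genes higher in hypoxia, 739 (19.8%) were also called higher in normoxia, and of the 3643 lower, 559 (15.3%) were also called lower. Called in the opposite direction in normoxia were 415 of the former and 311 of the latter. Across all genes the log2 differences of the settings correlated at 0.16 (Pearson; genes are not independent replicates). Without replicate 2 of parental normoxia, the array that stands apart, the normoxia calls were 1484 and 1165, the shares 17.5% and 12.5%, and the correlation 0.20. The difference of the ESR2 effect between hypoxia and normoxia was called positive for 2987 genes (16.4%) and negative for 2610 (14.3%), and for 3004 and 2758 without that array. The test of this difference shares the hypoxic arrays with the first comparison.

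Of the 8 genes with the largest positive difference between settings 6 were among the 15 largest rises, and of the 8 with the largest negative difference 6 were among the 15 largest falls. In normoxia 8 of those 15 rises and 6 of those 15 falls were called in the same direction, and none in the opposite one. DIDO1, NCOA5, MAT2A, SLC35G1, FSAF1 and WDR73 differed in normoxia by -0.06 to 0.06 without a call, and their effects in hypoxia were larger by 2.35 to 3.08. CCDC71 and DLX2, a homeobox gene, had 2.29 and 2.27. At the negative end, KLF9 and LCORL were called lower in normoxia as well, by -0.76 and -0.63, and by more in hypoxia, while OSMR, ZNF226, RSRP1 and TRIOBP were not called in normoxia. MAL2, a protein of apical transport, and GASK1B were higher in ESR2 cells in either setting, but by less in hypoxia. MAL2 averaged 4.05, 4.71, 7.66 and 5.75 in parental normoxia, parental hypoxia, ESR2 normoxia and ESR2 hypoxia, a difference between settings of -2.57 (SE 0.24; adjusted p = 1.62e-08). HIF1A had -1.22 (SE 0.13; adjusted p = 1.15e-07), HIF1AN 1.06 (SE 0.10; adjusted p = 3.62e-08) and VHL 0.74 (SE 0.23; adjusted p = 0.0155). Without replicate 2 of parental normoxia these 3 had -1.08, 1.015 and 1.03, all called.

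**Figure D3:**
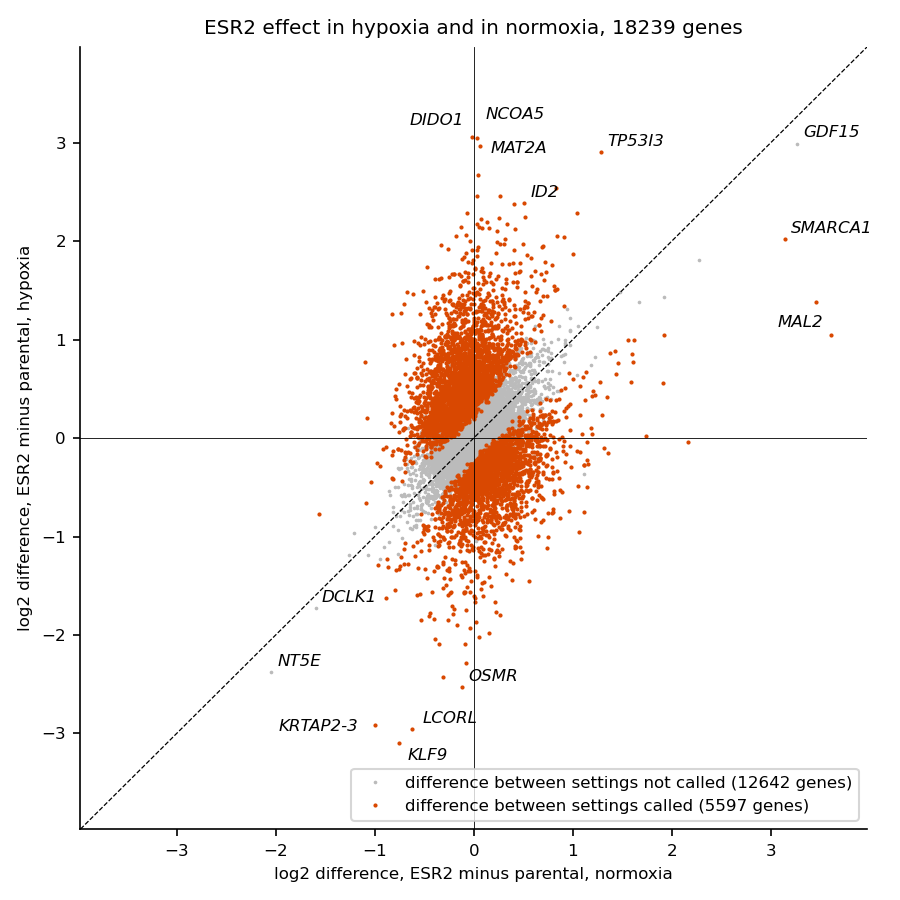
Log2 difference of ESR2 minus parental cells in normoxia (x axis) and hypoxia (y axis) for 18239 genes; orange points have a called difference between the settings, grey points do not, and the dashed line marks equal effects. NCOA5, DIDO1 and MAT2A lie near 0 on the x axis and near 3 on the y axis, whereas GDF15 and NT5E lie close to the dashed line.

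A smaller set of genes kept 1 direction in all 4 comparisons of ESR2 with parental cells, without and with estradiol, in normoxia and hypoxia. With estradiol the calls were 5074 higher (27.8%) and 3618 lower (19.8%) in hypoxia, and 1542 (8.45%) and 952 (5.22%) in normoxia. Higher in all 4 were 362 genes and lower in all 4 were 233. Ranked by their smallest difference, GDF15 led those that were higher, with 3.26 in normoxia, 2.99 in hypoxia, and 3.14 and 2.66 with estradiol. SMARCA1, an ATPase of ISWI chromatin remodellers, read 4.42, 4.36 and 4.27 on the parental arrays and 6.66, 6.50 and 5.95 on the ESR2 arrays in hypoxia (log2 difference 2.02, SE 0.16; limma, adjusted p = 5.27e-10), with all 5 probe sets higher. FAM111A, a protease active at replication forks, ADIRF, an adipogenesis regulator, GASK1B, TP53INP1, TP53I3 and IL20RA, a chain of interleukin receptors, followed, at 2.2-fold to 7.5-fold in hypoxia. For FAM111A 1 of 3 probe sets was higher in hypoxia and none lower.

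NT5E led the genes lower in all 4 comparisons, with -2.05 in normoxia, -2.38 in hypoxia, and -2.02 and -2.49 with estradiol. DCLK1, a kinase that marks tuft cells, read 7.19, 7.34 and 7.37 on the parental arrays and 5.90, 5.49 and 5.32 on the ESR2 arrays in hypoxia (log2 difference -1.73, SE 0.10; limma, adjusted p = 2.13e-12). BCAR3, an adaptor of integrin and growth factor signalling, was 2.28-fold lower, KRTAP2-3 7.53-fold, SPCS3, a signal peptidase subunit, 2.45-fold, ANTXR2, an anthrax toxin receptor, 2.15-fold, NRP1, a coreceptor of semaphorins and VEGF, 2.47-fold, and AXL 1.87-fold.

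With estradiol the hypoxic ESR2 cells differed from hypoxic parental cells partly in the same genes. Of the 3726 higher without estradiol 2155 (57.8%) were called higher with it and 652 lower, and of the 3643 lower 1567 (43%) were called lower and 431 higher, with a correlation of 0.51 across genes. The groups with and without estradiol share no arrays. HIF targets with estradiol were higher in 4, lower in 22 and not called in 10 (median -0.58), and sterol synthesis in 1, 13 and 7. Ribosome biogenesis had 11 members higher and 10 lower. The difference between the ESR2 effects with and without estradiol was called positive for 4275 genes (23.4%) and negative for 3386 (18.6%), with a median of 0.12 over all genes. With the 3′ minus 5′ index as a covariate, whose slope rests on the spread within groups, the calls were 2697 positive and 3282 negative.

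Among the largest rises, TP53I3 was higher by a further 1.77 with estradiol (limma, adjusted p = 1.3e-09), reaching 4.68, whereas the effects on MAT2A and LCMT2 changed by -1.72 and -2.19. All 15 of the largest rises and all 15 of the largest falls kept their direction and a call with estradiol.

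Probe sets of a gene did not always agree. Of 11822 genes with more than 1 probe set, 7191 had at least 1 call in hypoxia and 707 (9.83% of these) had calls in opposite directions, against 142 of 3732 (3.8%) in normoxia. In 7 genes probe sets differed by 2-fold or more both ways: DIDO1, ENSA, GIT2, IKBIP, LUC7L3, PNISR and ZNF226; there were none in normoxia and 47 in hypoxia with estradiol. These genes were named after their values were seen. GIT2, a GTPase-activating adaptor, had a probe set at 1.85 (SE 0.10) and another at -1.76 (SE 0.08), and ENSA, a regulator of mitotic phosphatase, had 1.20 and -2.18 at its ends. LUC7L3 and PNISR are splicing-related proteins; their probe sets spanned -1.53 to 1.08 and -1.54 to 1.09. HIF1A, with all 8 probe sets between -1.06 and -0.58, shows the other pattern. The files give no position of a probe set in its transcript, so which exons or ends these measure was not analysed here.

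**Figure D4:**
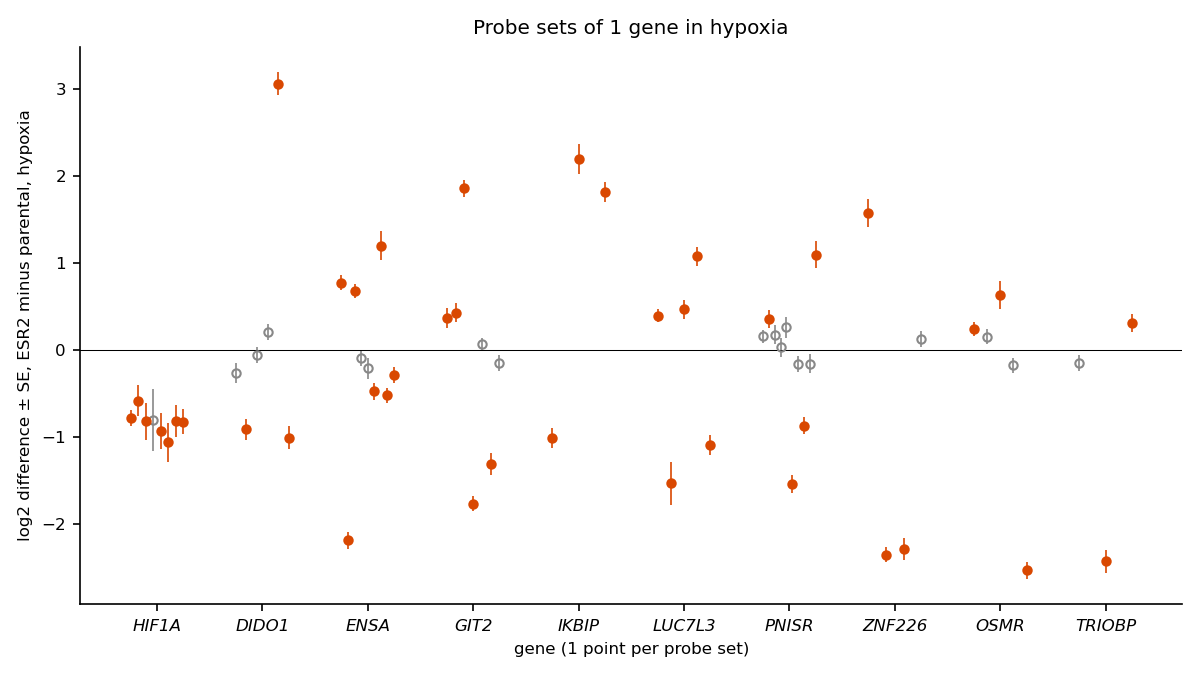
Log2 difference (± SE) of ESR2 minus parental cells in hypoxia for each probe set of 10 genes, filled where called and open where not. The 8 probe sets of HIF1A all lie below 0, whereas those of DIDO1, ENSA, GIT2, IKBIP, LUC7L3, PNISR and ZNF226 lie on both sides of 0 by a log2 unit or more.

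Genes past 2-fold differed in genomic span by direction. Genes lower by 2-fold or more had a median span of 80.9 kb (194 genes) in RefSeq, those higher by 2-fold or more one of 19.8 kb (492 genes with a span), and all genes tested one of 25.7 kb. Over 100 kb long were 42.3%, 8.33% and 17.4%. Among genes with a mean log2 signal of at least 6 in either group, the median difference was 0.10 for 1543 genes under 10 kb, 0.11 for 2222 of 10 to 30 kb, 0.07 for 2578 of 30 to 100 kb, -0.05 for 1103 of 100 to 300 kb and -0.46 for 182 over 300 kb. In the longest class 62.6% of genes were called lower and 14.8% higher. Against the parental mean, the medians of that class on the 3 ESR2 arrays were -0.40, -0.40 and -0.58, and those of the class under 10 kb 0.09, 0.08 and 0.13, so each array showed the order. In normoxia the class over 300 kb had a median of 0.03, and in hypoxia with estradiol -1.39. The values of those arrays do not enter the differences of the first comparison. The 3′ minus 5′ index differs between the groups as given above, and its part in this order was not tested. Span was examined after other results were seen, and is a description with no test.

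**Figure D5:**
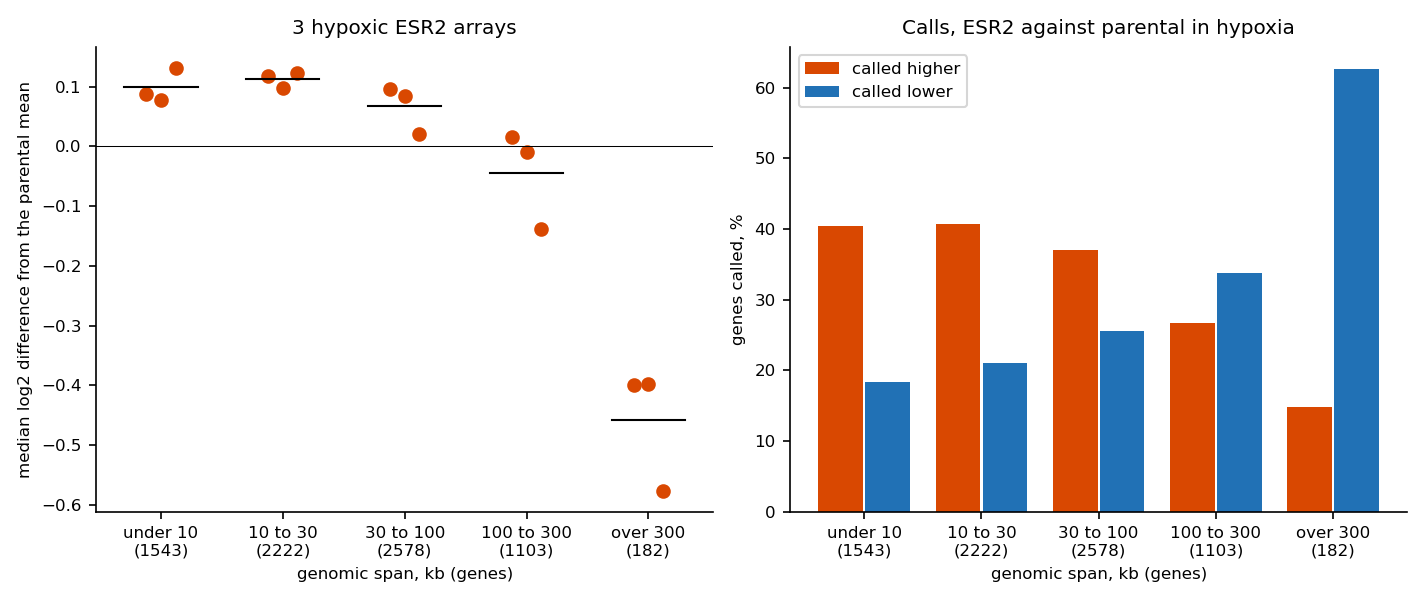
Left, median log2 difference of each hypoxic ESR2 array from the hypoxic parental mean, for genes with a mean log2 signal of at least 6, in 5 classes of genomic span (points are arrays, bars their mean; numbers of genes in parentheses). Right, percent of the same genes called higher or lower; the class over 300 kb lies lowest on all 3 arrays and holds 62.6% lower calls.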

How the data were processed

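RNA of 24 HCT116 samples was measured on Affymetrix arrays. The deposited values are log2 signals that the authors made with RMA in affy, per the submitters' processing notes, with no version given in the sources used here. Of the 49386 probe sets 93 are controls; 45253 have 1 gene symbol in the platform annotation, 1327 several and 2713 none here. The brightest probe set over all arrays stood for each of 18239 genes. Group means of all 8 groups were fitted with limma 3.58.1 in R 4.3.3 (16 residual df, Benjamini-Hochberg over all genes, threshold 0.05). The fit was tested on simulated data. Named genes are the 15 largest rises and falls called without overlap, up to 4 members a list by smallest p, 8 each way by smallest difference over all 4 comparisons, 8 each way by the difference between hypoxia and normoxia, and the receptors and oxygen sensors. The members and lists were chosen with earlier results of these data known. Alternatives changed the normalization, dim-gene filter, probe set rule, prior, weights, samples, replicate block and 3′ minus 5′ covariate, or left out 1 array; leaving out replicate 2 of parental normoxia for the normoxia comparison was chosen after seeing the data. Motifs were searched on both strands in Python 3.11.15. Promoters and gene spans are RefSeq's (GRCh38.p14).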

Additional observations from a re-analysis of the deposited data

Results flagged for a closer look

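Genes whose ESR2 effect differed between settings, by limma's test of the difference itself, are given here as differences of log2 effects. Between hypoxia and normoxia the effect was higher in hypoxia for 2987 genes and lower for 2610. The hypoxia effect exceeded the normoxia effect for DIDO1 (3.08), NCOA5 (3.02), MAT2A (2.90), SLC35G1 (2.63), FSAF1 (2.43), WDR73 (2.34), CCDC71 (2.29), DLX2 (2.27), LCMT2 (2.19), ARPC3 (1.98), MSX2 (1.97), ID2 (1.88), ZNF425 (1.73), FAM200C (1.71), TP53I3 (1.62) and BAX (1.25). It lay below the normoxia effect for SPCS3 (-0.32), NRP1 (-0.44), SMARCA1 (-1.12), BRWD1 (-1.66), SYT1 (-1.73), ARHGAP11A (-1.74), OPN3 (-1.89), NF1 (-1.90), KRTAP2-3 (-1.91), LEPR (-2.0), KRTAP4-9 (-2.07), GASK1B (-2.08), TRIOBP (-2.11), RSRP1 (-2.13), ZNF226 (-2.20), LCORL (-2.33), KLF9 (-2.35), OSMR (-2.41) and MAL2 (-2.57). Most of these genes were picked by the hypoxia comparison, whose arrays enter this test, and CCDC71, DLX2 and MAL2 by this difference itself, so the values are a description. The 3′ minus 5′ index was 2.60 to 4.34 in parental normoxia and 2.28 to 3.10 in ESR2 normoxia. Without the parental normoxia array at 4.34 each gene listed here kept its direction and its call. BAX then had 1.52, FAM200C 1.92 and SMARCA1 -0.91. Beyond that fit the part of the index in single genes was not tested.

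Between hypoxia with and without estradiol the effect was higher with estradiol for 4275 genes and lower for 3386. It was higher with estradiol for TP53I3 (1.77), KRTAP2-3 (1.36), OSMR (1.09), KRTAP4-9 (1.01), FAM200C (0.77), NF1 (0.72), RSRP1 (0.70), ID2 (0.60) and KLF9 (0.58), and lower for ARHGAP11A (-0.52), ZNF425 (-0.58), FSAF1 (-0.59), WDR73 (-0.63), LEPR (-0.66), SYT1 (-0.92), DIDO1 (-0.93), LCORL (-1.25), BRWD1 (-1.28), ARPC3 (-1.46), NCOA5 (-1.55), MAT2A (-1.72) and LCMT2 (-2.19). The index was 3.42 to 4.01 on the hypoxic ESR2 arrays with estradiol, against 2.54 to 2.58 on the matching parental arrays.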

How the results depend on the processing

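Counts of called genes over the whole table stayed within 1.5 times of those reported, with the exceptions that follow. With arrays centred on their medians, 5612 genes were lower in hypoxia. With every probe set tested, a table of more features, the calls were 8017 higher and 7892 lower in hypoxia, 5870 and 5188 for hypoxia minus normoxia, and 8030 and 7682 for estradiol minus none. Array weights gave 3958 negative calls for hypoxia minus normoxia, and the 3′ minus 5′ index as a covariate gave 2697 positive calls for estradiol minus none. Leaving out 1 array at a time gave 3350 to 3683 higher and 2773 to 4076 lower in hypoxia, an ESR2 difference of 0.58 to 0.70, 2691 to 3092 and 2172 to 2810 for hypoxia minus normoxia, and 3473 to 4739 and 3152 to 3463 for estradiol minus none. With the mean of probe sets STC2 turned to 0.29, MKI67 to 0.45 and ARNT to -0.009; no other setting turned a named gene that was called. Counts within the gene lists were less stable: of the 1184 counts of higher or lower members recomputed (74 counts under 16 alternatives), 110 moved by more than 1.5 times, 32 by 3 members or more, and 26 of the latter were rises in the number called lower. Deviations from the group mean correlated at -0.15, 0.06 and -0.01 between same-numbered replicates of hypoxic parental and hypoxic ESR2 cells. The numbers were therefore not used to pair arrays, but such values cannot tell whether same-numbered replicates were handled together. The replicate block gave 3665 higher and 3513 lower, 2939 and 2500, and 4094 and 3338, with ESR2 at 0.64. Leaving out the arrays that stand apart was not run for the estradiol difference, which needs them. For dim genes such as ESR2 and ESR1 the number of arrays and the signal over background limit the precision.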

Other observations

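Counts of several smaller lists are given here beside the 20.4% higher and 20.0% lower of all genes. Of 15 genes of methionine and polyamine metabolism 5 were higher, 4 lower and 6 not called: besides MAT2A, SAT1, which acetylates polyamines for export, had -1.47, SE 0.07 with all 3 probe sets lower, SMS, spermine synthase, -0.58, SE 0.05, and OAZ2, an antizyme that restrains polyamine synthesis, 0.72, SE 0.08. Of 10 genes of the urokinase system and serpins 3 were higher, 4 lower and 3 not called. PLAU, urokinase itself, had -0.98, SE 0.06 beside its receptor PLAUR at -1.41, while the serpins SERPINB9 and SERPINB5 had 1.31, SE 0.10 and 0.99, SE 0.09. Of 12 lipid droplet genes 6 were higher, 3 lower and 3 not called, with LPCAT1, a lysophospholipid acyltransferase, at 1.68, SE 0.10 and PLIN3, a droplet coat protein, at -0.44, SE 0.07.

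Of 19 NRF2 targets 8 were higher, 3 lower and 8 not called. The antioxidant and detoxifying genes SRXN1, ABCC2, NQO1 and HMOX1 had 0.99, 0.96, 0.66 and 0.73, each with all of its probe sets higher. Of 16 antigen presentation genes 6 were higher, 0 lower and 10 not called, among them TAP2, a peptide transporter (0.81, SE 0.09). Of 17 SWI/SNF subunits 4 were higher, 2 lower and 11 not called, SMARCD2 having 0.84, SE 0.12. Of 9 metallothionein and zinc genes 2 were higher, 4 lower and 3 not called, MT1G having -0.31, SE 0.08 and the zinc exporter SLC30A1 0.39, SE 0.12. The SLC30A1 call was lost with quantile normalization once more (0.26, adjusted p = 0.115) and without parental replicate 3 (0.34, adjusted p = 0.0659), ESR2 replicate 2 (0.33, adjusted p = 0.0708) or ESR2 replicate 3 (0.33, adjusted p = 0.058). Of the list 0 members were higher and 1 lower without ESR2 replicate 2, 1 was lower without ESR2 replicate 1 and 2 without parental replicate 1; metallothionein genes are near-identical and their probe sets may not tell them apart. Of 7 estrogen and related receptor genes 1 was higher, 1 lower and 5 not called.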
